A study of Mus musculus with 6 samples.

Results

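Meiotic prophase and recombination genes were followed in mouse spermatogonial stem cells, the self-renewing germ cells of the testis, grown in culture with or without bisphenol A (BPA), a building block of polycarbonate plastic. The genes are 31 named components of meiotic chromosomes and of meiotic recombination, found by gene name among the 34745 genes of the deposited table. Gm1564 is now called Meioc, 1700123I01Rik is Majin and Ccdc79 is Terb1. All cells came from mice of strain DBA/2J X c57BL/6J at postnatal day 6 and were at passages 15 to 20. The 3 untreated samples had no BPA, and the 3 BPA samples had 100 µM in complete medium for about 4 days. The titles name no vehicle, so effects of a solvent and of BPA cannot be told apart, and the labels are silent on whether replicates came from distinct cultures or animals. The p-values therefore cover only the spread among these 6 samples.

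Meiotic prophase is the stage at which germ cells break their own DNA, pair homologous chromosomes and repair the breaks as crossovers. Breaks are made by SPO11 with its accessory proteins at sites marked by PRDM9, the broken ends are loaded with DMC1 and resolved by the MutS and MutL homologs, and all of this takes place on chromosome axes of cohesin, SYCP and HORMAD proteins that the synaptonemal complex zips together. Spermatogonial stem cells divide by mitosis, but some of these genes are known to be transcribed in them, and retinoic acid acting through STRA8 raises the programme when germ cells enter meiosis.

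Library totals ran from 13453280 to 22286517 counts, and 26 to 29 of the 31 genes had at least 1 count in a library. In raw counts BPA replicate 2 stood apart: the chi-square per degree of freedom between replicates was 64.2 and 84.5 for its pairs, and 18.9 to 25.4 for the other replicate pairs. On the first principal component of log-scaled counts (39.7% of variance) the untreated libraries were the more spread, at -120.12 to -19.47. The BPA libraries were at 34.87 to 72.22. On the second (23.3%) the ranges were -63.03 to 100.02 untreated and -29.77 to -12.65 under BPA. Levels are given in CPM, counts scaled to an equal library total with TMM factors, with mean ± SD where 3 libraries of a group are summarised (n = 3). Fold changes are on the log2 scale, positive where BPA was higher, each with its standard error (SE). Adjusted p-values are from edgeR's quasi-likelihood test over all tested genes, with 0.05 as the threshold. The spermatogonial markers of the labelled cell type were present, with Ret at 391 ± 10.8 CPM untreated and 432 ± 148 CPM under BPA. Several of them changed with BPA. The marker counts that follow stand against 4.37% higher and 6.28% lower over all 13287 genes tested by edgeR. Of 12 tested markers of undifferentiated spermatogonia, 3 fell and 1 rose, and the median log2 fold change of the list was 0.05. Nanos3, an RNA-binding regulator, was at 252 ± 17.9 CPM untreated and 40.2 ± 8.52 CPM under BPA (log2 fold change -2.65, SE 0.19, adjusted p = 8.5e-06 in edgeR). Uchl1, a ubiquitin hydrolase, was at 684 ± 27.4 and 387 ± 60.6 CPM (-0.82, SE 0.15, adjusted p = 0.00445 in edgeR), and both passed without each library in turn. Id4 fell by 1.0 and Sall4 rose by 0.82 (log2, edgeR adjusted p = 0.0401 and 0.0379, up to 0.151 and 0.163 without 1 library). Of 5 markers of differentiating spermatogonia 2 rose, Stra8, described with the partner lists, and Sohlh1 (0.68, SE 0.16, edgeR adjusted p = 0.0191, up to 0.0766 without 1 library). Kit (-0.24, SE 0.37), Sohlh2 (0.22, SE 0.14) and Dmrtb1 (0.61, SE 0.19) did not pass in edgeR. Of 15 markers of late spermatocytes and spermatids, 7 (Pgk2, Acr, Acrv1, Prm2, Tnp2, Catsper1 and Adam2) had 0 counts in every library, and the summed level of the list was 12.2 to 29.8 CPM in untreated and 18.3 to 22 CPM in BPA libraries. Fibroblast feeder markers (10 genes) summed to 266.5 to 318 CPM in untreated and 166.4 to 279.7 CPM in BPA libraries. Their median log2 fold change was -0.35, and 0 of 9 tested passed in edgeR. Leydig cell markers (5 genes) summed to at most 1.3 CPM in a library. Of 10 Sertoli cell markers, Fshr and Rhox5 were at 0 in every library and the summed level was 45.9 to 58.7 CPM in untreated and 119.5 to 155.1 CPM in BPA libraries, most of it Clu. Of the 5 tested Sertoli markers 2 rose, Clu (1.34, SE 0.21, edgeR adjusted p = 0.00199, kept without each library in turn) and Sox9 (1.5, SE 0.31, edgeR adjusted p = 0.0104, lost without untreated replicate 1 at 0.0594). These marker changes stood beside those of the meiotic genes, and their part in the results was not tested.

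In the 28 genes with enough counts to be tested, 3 rose and 0 fell under BPA: Tex11, Mei4 and Prdm9. Over all 13287 tested genes, 4.37% were called higher and 6.28% lower (10.6% in either direction), against 10.7% of the 28 genes in either direction, all of them higher. At an unadjusted p under 0.05 edgeR had 6 of the 28 higher (Dmc1, Syce1 and Sycp2 besides the 3) and 1 lower, Mei1. The share of all tested genes at that unadjusted threshold was not computed, so these counts have nothing to stand against. DESeq2 called 4 higher, adding Dmc1, and 0 lower, against 6.92% and 8.65% of all genes it tested. The median log2 fold change was 0.49 for the 28 genes and 0.10 for all tested genes, and that of the 28 was 0.83 without BPA replicate 2, 0.15 without BPA replicate 1 and 0.22 after a GC and length correction. Fold changes over all tested genes also moved with GC content, as given below with BPA replicate 2. Prdm9 entered the test only through its BPA counts and so had to differ, which is why the counts and medians over the 28 genes are given as description. Scaling by library size alone moved the median of all genes to 0.21 and turned the split over all genes from 580 higher and 835 lower to 831 and 786, with the same 3 meiotic genes called. When 1 library was left out, Prdm9 passed in none of the 6 fits, and Tex11 and Mei4 passed only without BPA replicate 2 (highest adjusted p 0.193, 0.113 and 0.253 in edgeR). The log2 fold changes in those fits kept their sign, from 1.80 to 2.91 for Tex11 and from 1.35 to 2.06 for Mei4, and calls over all genes also dropped, to 444 to 833, in the 5 fits other than that without BPA replicate 2. Without BPA replicate 2 there were 6 calls, all higher (Tex11, Mei4, Sycp1, Sycp2, Rad21l and Syce1), against 8.81% of all tested genes higher. With all libraries limma-voom made 0 calls, against 3.81% of all genes called higher and 6.93% lower. It had 5 of the 28 higher and 1 lower at an unadjusted p under 0.05, again with no share over all genes. In bulk RNA, fewer cells of a type and less RNA per cell cannot be told apart.

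**Figure D1:**
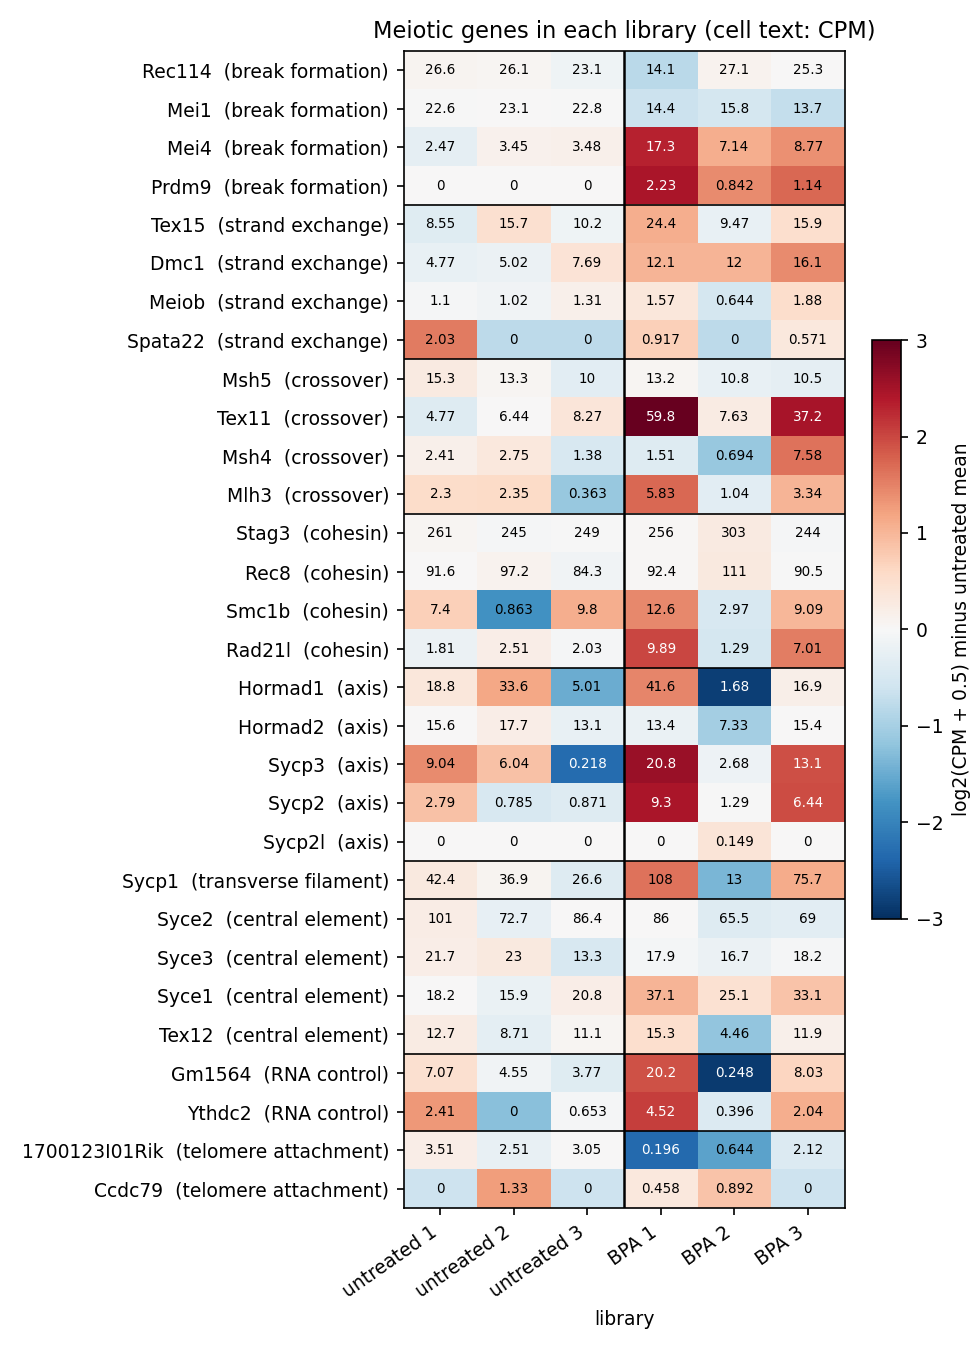
Each row is a gene, grouped by role, and each column a library. Cell text is CPM, and colour is log2(CPM + 0.5) minus the untreated mean. Tex11, Sycp1, Sycp2, Sycp3 and Rad21l are high in BPA replicates 1 and 3 and not in replicate 2, Stag3 and Rec8 are nearly even, and Spo11, with 0 counts, is not drawn.

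Levels of different genes can be compared only per length, for which the deposited FPKM values (counts scaled to gene length and library total) serve. In untreated cells 4 genes stood at the top: Syce3 (33.5 ± 8.45 FPKM), Stag3 (30.2 ± 1.12 FPKM), Syce2 (28.1 ± 4.63 FPKM) and Rec8 (24.8 ± 1.2 FPKM). Neighbours in this order overlapped, while the libraries of Stag3 all lay above those of Rec8. The 4 genes encode parts of the synaptonemal complex central element and of meiotic cohesin. Below them came Tex12 (16.9 ± 3.21 FPKM), Syce1 (12.1 ± 1.94 FPKM) and Rec114 (11.2 ± 0.579 FPKM), followed by Hormad1 and Sycp1 at 8.08 ± 5.95 and 7.84 ± 1.63 FPKM. At the low end, Msh4, Sycp2, Mlh3, Spata22, Ythdc2 and Ccdc79 had means of 0.0709 to 0.293 FPKM, and Spo11, Prdm9 and Sycp2l had 0 counts. High and low levels thus occurred among proteins of the same structure, as for the cohesin genes Stag3 and Rec8 beside Rad21l (1.16 ± 0.187 FPKM). In BPA cells the order at the top was Stag3 (34.4 ± 1.01 FPKM), Syce3 (33.1 ± 4.22 FPKM), Rec8 (28.6 ± 0.778 FPKM), Syce2 (25.8 ± 5.15 FPKM) and Syce1 (22.7 ± 5.83 FPKM).

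**Figure D2:**
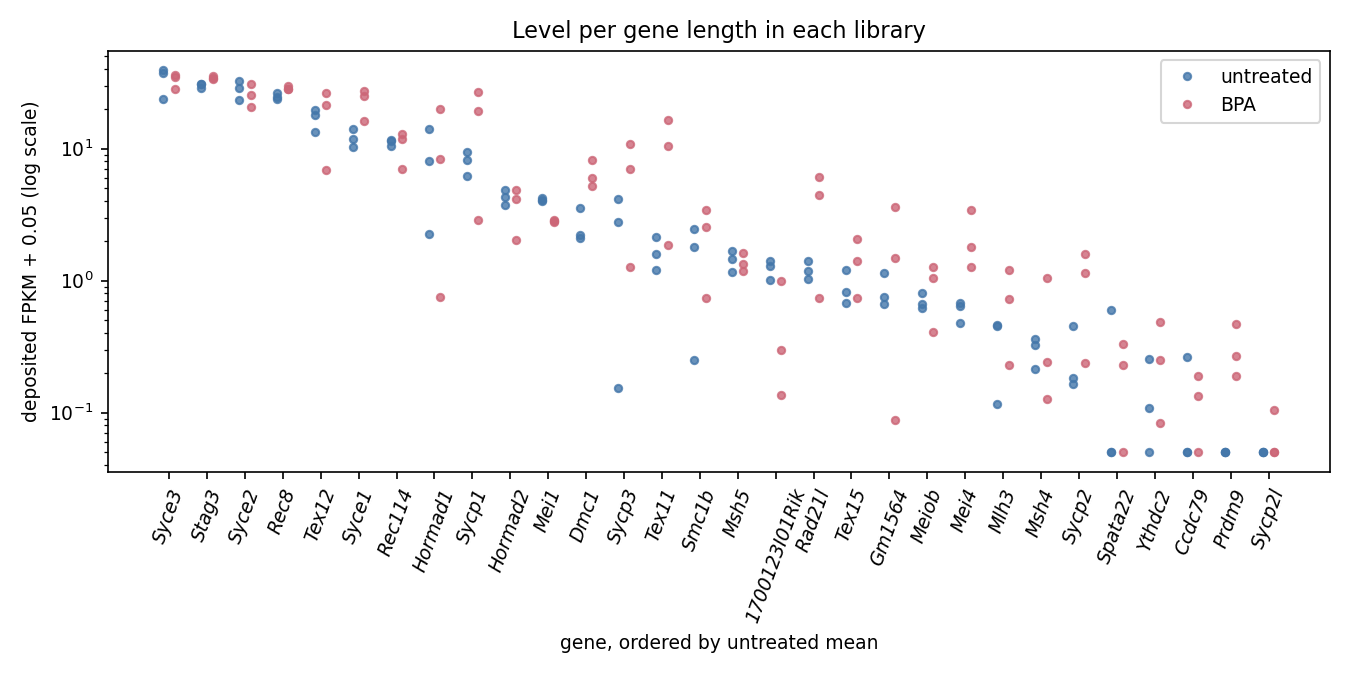
Each point is the deposited FPKM of a gene in a library, plus 0.05, on a log axis, with genes ordered by their untreated mean. Syce3, Stag3, Syce2 and Rec8 lie at 20 to 40 FPKM in every library, and Hormad1, Sycp3, Tex11 and Gm1564 spread widely between libraries.

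Of the 5 break formation genes, Mei4 and Prdm9 passed the test, both higher, Mei1 and Rec114 did not pass and Spo11 could not be tested. Spo11, which encodes the enzyme that cuts the DNA, had 0 counts in all 6 libraries, which allows up to 0.0286 CPM (3 counts over all libraries, counting error only). Prdm9 (ENSMUSG00000051977, chromosome 17, 15543079 to 15564354, mm10), the histone methyltransferase that places recombination sites, had 0 counts in every untreated library and 34, 17 and 28 counts in BPA replicates 1 to 3 (2.23, 0.842 and 1.14 CPM). Taking 3 counts summed over the untreated group as the detection floor, Prdm9 was at least 19.7-fold higher under BPA. Its edgeR adjusted p was 0.0496, which is no independent support, since Prdm9 entered the test through its BPA counts alone. All BPA libraries held it and no untreated library did, at a level close to the limit of detection. Mei4 (ENSMUSG00000043289, chromosome 9, 81863670 to 82206007), a partner of REC114 needed for breaks, was at 2.47, 3.45 and 3.48 CPM in untreated and 17.3, 7.14 and 8.77 CPM in BPA replicates 1 to 3. Every BPA library lay above every untreated one, and the log2 fold change was 1.82 (SE 0.50, adjusted p = 0.0361 in edgeR). Mei1, required for break formation, was nearly constant in untreated cells, with 22.6, 23.1 and 22.8 CPM untreated and 14.4, 15.8 and 13.7 CPM under BPA. The groups of Mei1 did not overlap and its log2 fold change was -0.64 (SE 0.28), but the adjusted p was 0.173 in edgeR. Rec114, the partner of MEI4, was at 26.6, 26.1 and 23.1 CPM untreated and 14.1, 27.1 and 25.3 CPM under BPA, so that only BPA replicate 1 stood low (-0.19, SE 0.30). Of the exon bases of Rec114, 26.9% overlap Nptn on the other strand, and the kit does not mark strand. The 5 break formation genes summed to 49.3 to 52.6 CPM in untreated and 48.1 to 50.8 CPM in BPA libraries. Group means were higher under BPA for Mei4 (3.13 to 11.1 CPM) and Prdm9 (0 to 1.4 CPM). They were lower for Mei1 (22.8 to 14.6 CPM) and Rec114 (25.3 to 22.2 CPM).

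The stretches of promoter below are shown because Prdm9 and Mei4, which passed the threshold, the split gene Sycp1 and the even gene Stag3 can be compared in them. They are RefSeq windows of 300 bases (GRCm38.p6, 250 before and 50 after a start), 5′ to 3′ on the gene's strand. The 3 motifs searched, on both strands, were TCCCGC (E2F-type, the kind bound by the repressor E2F6), CACGTG (the E-box, bound among others by MAX with MGA) and CNCCTCAG (reported for STRA8). Matches are in capitals, and neighbouring matches of the first and last can overlap.
Prdm9, chr17:15564305-15564604, minus strand: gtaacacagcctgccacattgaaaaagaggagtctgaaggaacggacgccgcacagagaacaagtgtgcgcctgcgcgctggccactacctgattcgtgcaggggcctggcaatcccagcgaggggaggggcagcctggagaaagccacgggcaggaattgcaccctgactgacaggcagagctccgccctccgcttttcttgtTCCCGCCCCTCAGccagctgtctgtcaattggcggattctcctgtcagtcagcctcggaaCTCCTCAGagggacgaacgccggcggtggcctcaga
Mei4, chr9:81863420-81863719, plus strand: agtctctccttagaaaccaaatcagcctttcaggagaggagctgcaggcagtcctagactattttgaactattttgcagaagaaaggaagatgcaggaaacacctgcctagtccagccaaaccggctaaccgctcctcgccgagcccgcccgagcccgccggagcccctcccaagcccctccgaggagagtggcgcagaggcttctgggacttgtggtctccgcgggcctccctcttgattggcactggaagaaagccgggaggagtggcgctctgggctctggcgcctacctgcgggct
Sycp1, chr3:102936051-102936350, minus strand: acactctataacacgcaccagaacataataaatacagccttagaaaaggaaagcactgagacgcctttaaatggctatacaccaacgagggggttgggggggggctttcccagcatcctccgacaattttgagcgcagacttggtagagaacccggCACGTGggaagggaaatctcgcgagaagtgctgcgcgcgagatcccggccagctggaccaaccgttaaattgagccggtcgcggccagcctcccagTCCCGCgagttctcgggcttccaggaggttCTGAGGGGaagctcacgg
Stag3, chr5:138280259-138280558, plus strand: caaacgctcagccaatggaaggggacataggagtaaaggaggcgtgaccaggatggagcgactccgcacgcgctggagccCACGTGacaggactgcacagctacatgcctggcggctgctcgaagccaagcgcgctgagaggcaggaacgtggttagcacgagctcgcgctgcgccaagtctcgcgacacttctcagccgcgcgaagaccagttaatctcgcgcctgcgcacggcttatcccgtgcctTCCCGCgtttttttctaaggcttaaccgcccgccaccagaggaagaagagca

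The Prdm9 window held 1 E2F-type and 2 STRA8-type matches, the Sycp1 window 1 of each motif, the Stag3 window 1 E2F-type match and 1 E-box, and the Mei4 window 0 of the 3. A second Prdm9 window (chr17:15563282-15563581, minus strand, not printed) held 1 E2F-type and 0 STRA8-type matches. Of the 31 genes, 25 had at least 1 window, some with a second one, and Tex11, Tex15, Meiob, Spo11, Ythdc2 and 1700123I01Rik had none to show. An E2F-type match was found for 16 of the 25 genes (64.0%), an E-box for 7 (28.0%) and a STRA8-type match for 6 (24.0%). Among all 27025 genes with windows the shares were 22%, 8.09% and 9.12%. These windows were also richer in CpG than most: of genes with a window of at least 15 CpG, 47.8%, 12.8% and 11.5% of 10038 held the motifs, against 78.9%, 31.6% and 31.6% of 19 meiotic genes. A match describes the letters only and is not evidence of binding.

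None of the 4 strand exchange genes passed in edgeR, and Dmc1 alone passed in DESeq2. Dmc1, the meiosis-specific recombinase, was at 4.77, 5.02 and 7.69 CPM untreated and 12.1, 12.0 and 16.1 CPM under BPA. The groups did not overlap, and BPA replicate 2 was level with replicate 1. The log2 fold change of Dmc1 was 1.2 (SE 0.40, adjusted p = 0.0740 in edgeR and 0.0394 in DESeq2, range over the alternatives 0.0394 to 0.263). Tex15, a germ cell protein needed for loading recombinases, was at 8.55, 15.7 and 10.2 CPM untreated and 24.4, 9.47 and 15.9 CPM under BPA (0.53, SE 0.41). BPA replicate 2 lay within the untreated range. Meiob, a single-strand DNA binding protein, was at 1.1, 1.02 and 1.31 CPM untreated and 1.57, 0.644 and 1.88 CPM under BPA (0.26, SE 1.09). Spata22, the partner of MEIOB, was counted in 3 libraries, with 37 counts in untreated replicate 1 and 14 in each of BPA replicates 1 and 3, and all of its exon bases (100.0%) are shared with Olfr20 in the annotation, so its value is uncertain.

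Among crossover genes the largest difference belonged to Tex11 (ENSMUSG00000009670, X chromosome, 100838648 to 101059667), an X-linked gene whose protein works with the MutS pair and whose loss arrests male meiosis. It was at 4.77, 6.44 and 8.27 CPM untreated and 59.8, 7.63 and 37.2 CPM under BPA. BPA replicates 1 and 3 stood far above the untreated libraries, while BPA replicate 2 lay inside their range, so the groups overlapped. The log2 fold change was 2.43 (SE 0.58, adjusted p = 0.0203 in edgeR), and limma-voom, which did not call it, gave an adjusted p of 0.155. Msh4 and Msh5, which form the meiotic MutS complex, did not differ beyond their spread. Msh4 was at 2.41, 2.75 and 1.38 CPM untreated and 1.51, 0.694 and 7.58 CPM under BPA (0.59, SE 0.94), with only BPA replicate 3 high. Msh5 was at 15.3, 13.3 and 10 CPM untreated and 13.2, 10.8 and 10.5 CPM under BPA (-0.17, SE 0.35). Mlh3, the endonuclease subunit that cuts crossover intermediates, was at 2.30, 2.35 and 0.363 CPM untreated and 5.83, 1.04 and 3.34 CPM under BPA (1.02, SE 0.96). As for Tex11, BPA replicates 1 and 3 of Mlh3 exceeded every untreated library and replicate 2 did not.

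**Figure D3:**
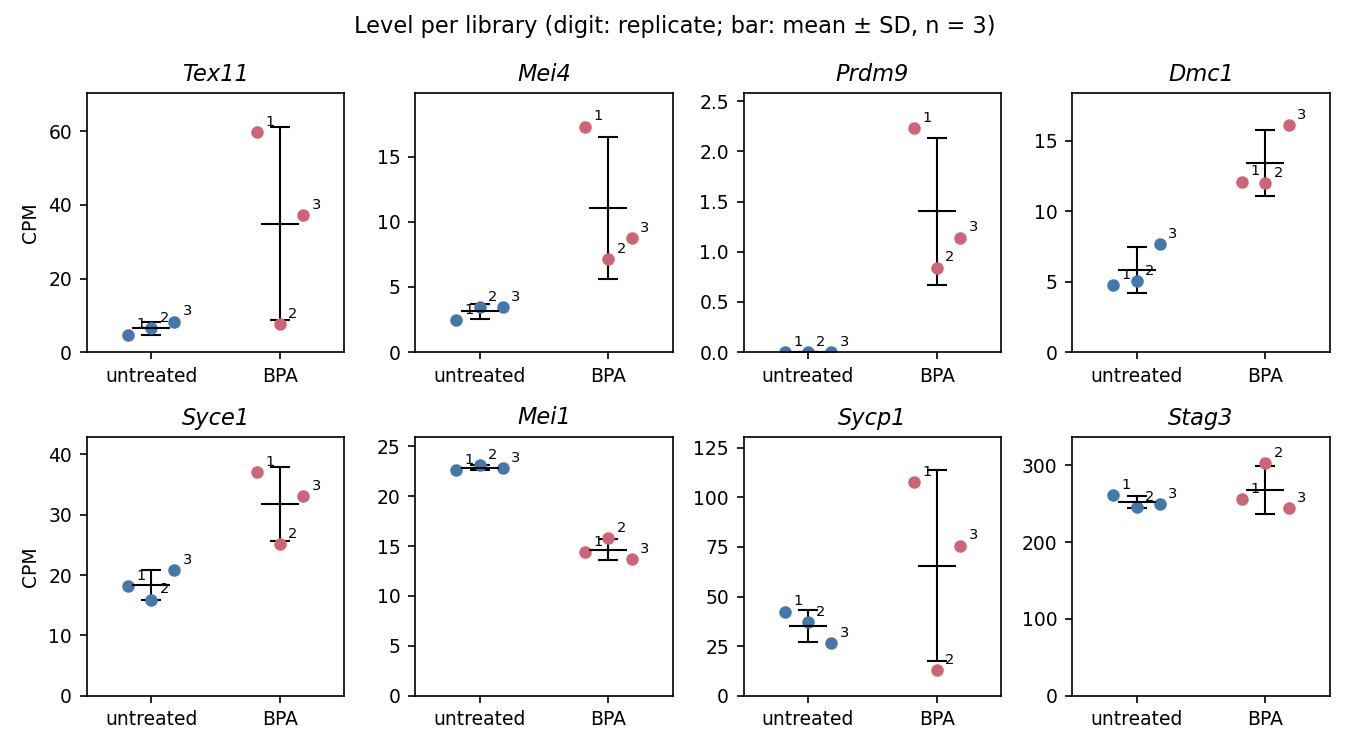
Points are CPM in each library, labelled by replicate number, and bars are the mean ± SD (n = 3). Mei4, Prdm9, Dmc1 and Syce1 are higher and Mei1 is lower in all BPA libraries, Tex11 and Sycp1 are high in BPA replicates 1 and 3 only, and Stag3 is even.

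Meiotic cohesin, the ring that holds sister chromatids together and forms the base of the axis, was split between abundant even subunits and scarce variable ones. Stag3 was at 261, 245.3 and 249.4 CPM untreated and 256.4, 302.9 and 244.4 CPM under BPA (0.09, SE 0.14). Rec8, the meiotic kleisin, was at 91.6, 97.2 and 84.3 CPM untreated and 92.4, 110.7 and 90.5 CPM under BPA (0.10, SE 0.17). For both genes BPA replicate 2 was the highest library, and the groups overlapped. Rad21l, the second meiotic kleisin, was at 1.81, 2.51 and 2.03 CPM untreated and 9.89, 1.29 and 7.01 CPM under BPA (1.51, SE 0.75, adjusted p = 0.231 in edgeR, and 0.0389 without BPA replicate 2). Smc1b, the meiotic SMC subunit, was at 7.40, 0.863 and 9.80 CPM untreated and 12.6, 2.97 and 9.09 CPM under BPA (0.45, SE 0.74). In Smc1b untreated replicate 2 and BPA replicate 2 were both low.

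No axis gene and not the transverse filament gene Sycp1 passed in edgeR with all libraries. Sycp1, the transverse filament that bridges the axes, was at 42.4, 36.9 and 26.6 CPM untreated and 107.6, 13 and 75.7 CPM under BPA (0.89, SE 0.52, adjusted p = 0.319 in edgeR). It passed without BPA replicate 2 (1.38, edgeR adjusted p = 0.00135) and, with all libraries, with no low-count filter (0.90, edgeR adjusted p = 0.0228), and in no other alternative run. BPA replicates 1 and 3 were the 2 highest libraries of Sycp1 and BPA replicate 2 the lowest of all 6. Sycp2, an axis protein, was at 2.79, 0.785 and 0.871 CPM untreated and 9.30, 1.29 and 6.44 CPM under BPA (1.92, SE 0.86, adjusted p = 0.186 in edgeR, and 0.0495 without BPA replicate 2). Sycp3, its partner, was at 9.04, 6.04 and 0.218 CPM untreated and 20.8, 2.68 and 13.1 CPM under BPA (1.25, SE 0.90). Of the exon bases of Sycp3, 52.2% overlap Chpt1 on the other strand, which makes its counts uncertain. Hormad1, which marks unsynapsed axes, was at 18.8, 33.6 and 5.01 CPM untreated and 41.6, 1.68 and 16.9 CPM under BPA (0.06, SE 0.82). The highest and the lowest library of Hormad1 were both BPA libraries, replicates 1 and 2. Hormad2 was tighter, with 15.6, 17.7 and 13.1 CPM untreated and 13.4, 7.33 and 15.4 CPM under BPA (-0.36, SE 0.37). Sycp2l, an oocyte axis protein, had 3 counts in BPA replicate 2 and 0 elsewhere.

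Among the 4 central element genes, Syce1 was the one with separate groups, at 18.2, 15.9 and 20.8 CPM untreated and 37.1, 25.1 and 33.1 CPM under BPA. Its log2 fold change was 0.79 (SE 0.27, adjusted p = 0.0888 in edgeR, range over the alternatives 0.0217 to 0.297), and it passed with the GC and length correction (0.0226) and when BPA replicate 2 was left out (0.0217). The other 3, which with SYCE1 hold the complex together, overlapped between groups. Syce2 was at 101, 72.7 and 86.4 CPM untreated and 86.0, 65.5 and 69.0 CPM under BPA (-0.24, SE 0.20). Syce3 was at 21.7, 23.0 and 13.3 CPM untreated and 17.9, 16.7 and 18.2 CPM under BPA (-0.13, SE 0.31). Tex12 was at 12.7, 8.71 and 11.1 CPM untreated and 15.3, 4.46 and 11.9 CPM under BPA (-0.04, SE 0.46), a sign that turned with scaling by library size (0.10).

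The RNA-binding pair that ends mitotic divisions at meiotic entry, YTHDC2 and MEIOC, was variable. Gm1564 (Meioc) was at 7.07, 4.55 and 3.77 CPM untreated and 20.2, 0.248 and 8.03 CPM under BPA (0.88, SE 0.92). Ythdc2 was at 2.41, 0 and 0.653 CPM untreated and 4.52, 0.396 and 2.04 CPM under BPA (1.16, SE 1.40). In both genes BPA replicate 1 was the highest library. Of the pair that ties telomeres to the nuclear envelope, 1700123I01Rik (Majin) was at 3.51, 2.51 and 3.05 CPM untreated and 0.196, 0.644 and 2.12 CPM under BPA, with groups that did not overlap (-1.59, SE 1.03, adjusted p = 0.371 in edgeR). Ccdc79 (Terb1) had 17 counts in untreated replicate 2, 7 and 18 in BPA replicates 1 and 2, and 0 elsewhere, and was not tested.

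**Figure D4:**
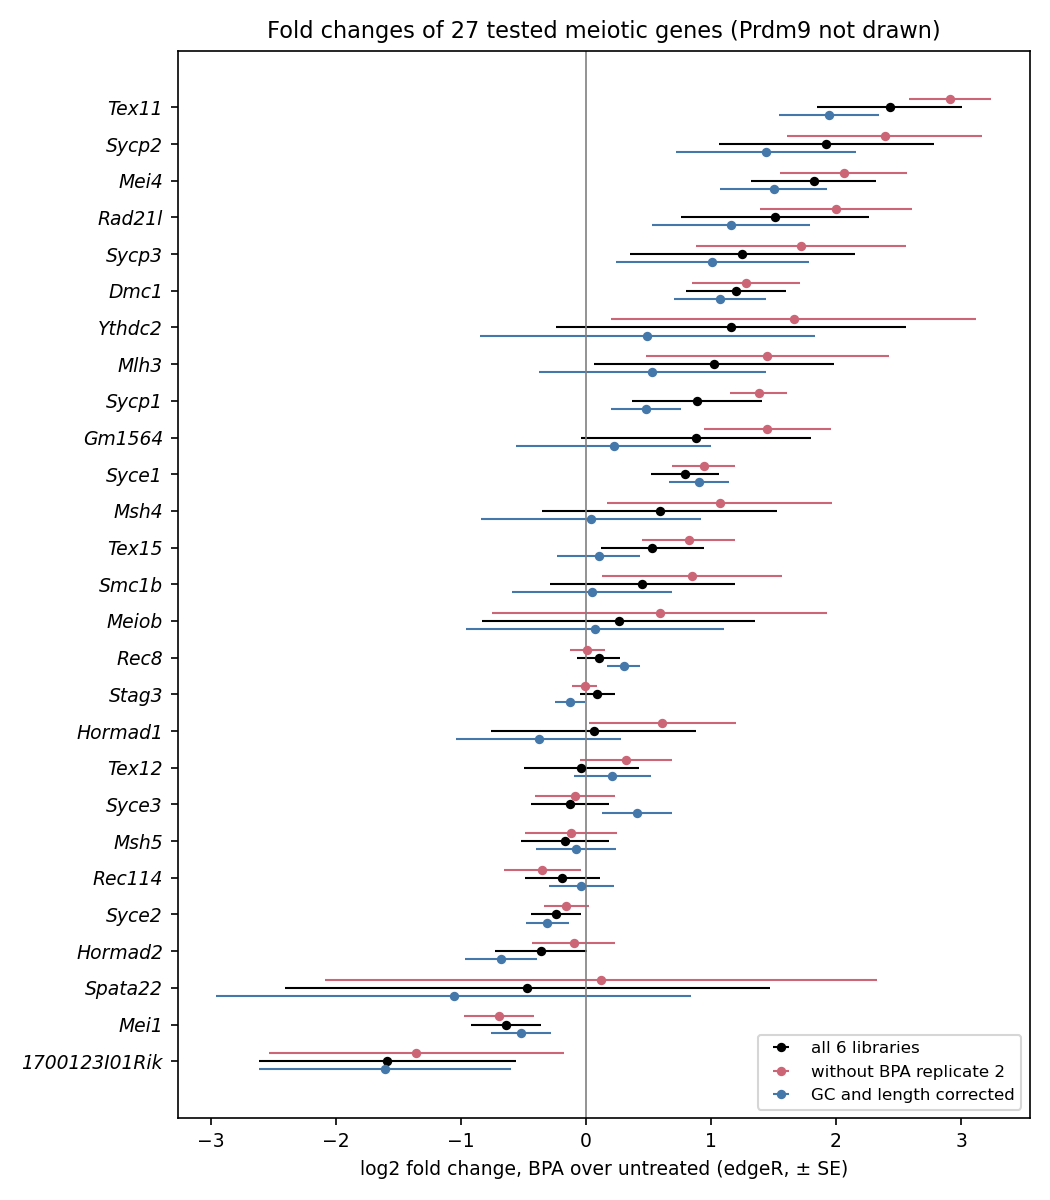
Points are log2 fold changes, BPA over untreated, with the SE, for 27 tested genes with all libraries, without BPA replicate 2, and after a GC and length correction. Tex11, Mei4, Dmc1, Syce1, Sycp1, Sycp2, Sycp3 and Rad21l stay above 0 by more than the SE in the 3 fits, and Mei1 and 1700123I01Rik stay below.

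Groups that did not overlap were seen for 6 of the 28 tested genes, 4 higher (Dmc1, Mei4, Prdm9 and Syce1) and 2 lower (Mei1 and 1700123I01Rik). Prdm9 was tested only through its BPA counts, so its groups could not overlap. It is counted here and among the genes high in BPA replicates 1 and 3 as description. Over all tested genes 15.6% were higher and 15.7% lower without overlap (31.3% in all), against 21.4% of the meiotic genes. The more frequent pattern was a split among the BPA libraries. BPA replicates 1 and 3 both exceeded every untreated library in 13 of the 28 genes (46.4%, against 27.5% of all tested genes), and in 9 of these 13, Gm1564, Meiob, Mlh3, Rad21l, Sycp1, Sycp2, Sycp3, Tex11 and Tex15, BPA replicate 2 did not (11.9% of all tested genes). BPA replicate 2 was the lowest BPA library for 22 of 28 genes (78.6%, against 35.1% of all tested genes). It was the highest for 4, Mei1, Rec114, Rec8 and Stag3 (14.3%, against 45.0%), and the lowest of all 6 libraries for 9 (32.1%, against 13.5%). The total of BPA replicate 2 was 21444077 counts, and the cause of its position was not tested. These patterns were chosen after the values were seen and carry no test, and the shares of all tested genes were not matched for GC content.

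The position of BPA replicate 2 moved with GC content across the whole table. GC content was that of the longest annotated transcript, and the difference is BPA replicate 2 minus the mean of BPA replicates 1 and 3 in log2(CPM + 0.5). In all tested genes under 40% GC (n = 663) its median was -1.21, with 89.9% of genes lower in replicate 2. It was -0.38 from 40% to 50% GC (n = 5584, 70.5% lower) and 0.38 at 50% GC and over (n = 7026, 18.2% lower). In the meiotic genes the median was -2.31 under 40% GC (10 of 10 lower, among them Sycp1, Sycp2, Sycp3, Hormad1, Tex11 and Gm1564), -0.94 from 40% to 50% (11 of 12 lower) and 0.02 at 50% and over (3 of 6 lower, Mei1, Rec8 and Rec114 being higher). The 9 genes high in BPA replicates 1 and 3 and not in replicate 2 had 34.3% to 44.1% GC, and the even genes Stag3, Rec8 and Msh5 had 49.1%, 56.7% and 55.6%. Other genes in the range of the 9 did not have this split against the untreated libraries, among them Tex12 (34.3%), Mei4 (39.8%), Dmc1 (42.1%) and Hormad2 (43.9%). These too were lower in BPA replicate 2 than in replicates 1 and 3, by differences of -1.49, -0.75, -0.21 and -0.92. The log2 fold change between groups also moved with GC content. Its median over all tested genes was 0.37 under 40% GC, 0.30 from 40% to 50% and -0.08 at 50% and over. In the meiotic genes it was 0.88, 0.69 and -0.18. For BPA replicates 1 and 3 minus untreated, the medians were 0.67, 0.45 and -0.19 in all tested genes. They were 1.33, 0.78 and -0.26 in the meiotic genes. Whether GC content or BPA replicate 2 plays a part in the differences between groups was not tested beyond the corrected and leave-one-out values given here. GC content was also correlated with the difference between BPA replicate 2 and replicates 1 and 3. Across the 28 genes, which share the same 3 libraries, Pearson's r was 0.78 and Spearman's rho 0.82, and across 13273 tested genes they were 0.63 and 0.65. After the GC and length correction the median difference of the 28 genes went from -0.99 to -0.48, with 22 still lower in replicate 2 in place of 24, while that of all tested genes went from 0.10 to 0.03. With the correction 4 of the 28 genes were called, all higher (Tex11, Mei4, Prdm9 and Syce1), against 6.77% of all tested genes higher and 9.22% lower. The log2 fold change of Tex11 went from 2.43 to 1.94, that of Mei4 from 1.82 to 1.5, and that of Sycp1 from 0.89 to 0.48.

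**Figure D5:**
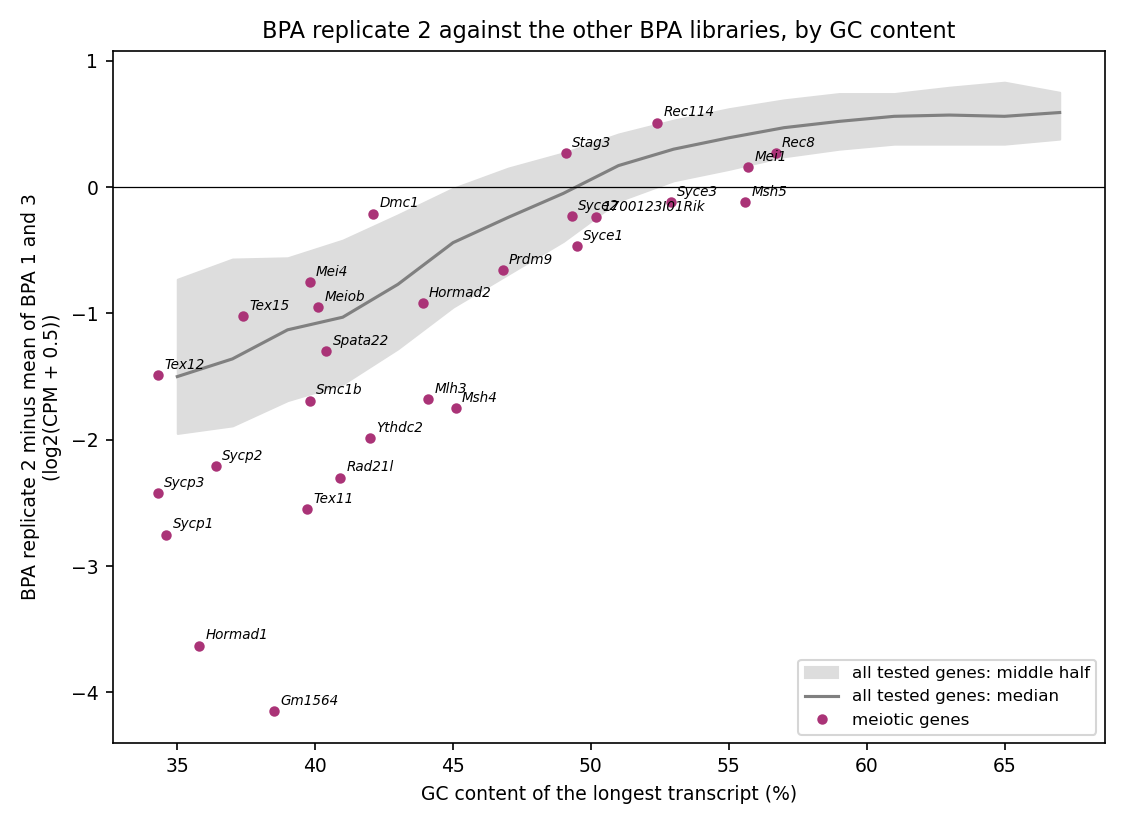
The x axis is the GC content of the longest transcript (%) and the y axis is BPA replicate 2 minus the mean of BPA replicates 1 and 3 in log2(CPM + 0.5). The line and band are the median and quartile range of all tested genes in bins of 2% GC, and points are the 28 tested meiotic genes. All 10 genes under 40% GC lie below 0, with Gm1564 (-4.15) and Hormad1 (-3.63) lowest.

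Genes around this core were taken from 5 lists of meiotic partners and controls. The counts that follow stand against 4.37% higher and 6.28% lower over all tested genes, with 9 to 28 genes tested in a list. Of 16 tested genes of meiotic entry and control, 2 were higher and 2 lower. Stra8, the retinoic acid target that drives meiotic entry, was at 14.6, 15.1 and 12.4 CPM untreated and 80.5, 50.4 and 75.9 CPM under BPA (2.29, SE 0.26, adjusted p = 2.3e-04 in edgeR), and it passed without each library in turn. BPA replicate 2 was again the lowest BPA library for Stra8 but stood well above the untreated ones. Cdk2, a kinase that also works at meiotic telomeres, rose by 0.67 (SE 0.19). Ccna2, the cyclin A of mitotic cells, fell by 1.0 on the log2 scale (SE 0.15), and Tex19.1, a germ cell gene that restrains retrotransposons, fell by 0.51 (log2, SE 0.13). Ccna2 passed without each library in turn. Cdk2 lost its call without any untreated replicate or BPA replicate 3, and the call of Tex19.1 was kept only when untreated replicate 3 or BPA replicate 2 was left out (highest edgeR adjusted p 0.195 and 0.145).

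Recombination partners that are shared with mitotic repair or assist the meiotic proteins had 0 of 28 higher and 1 lower in edgeR, as in DESeq2 and limma-voom, and 4 higher and 2 lower at an unadjusted p under 0.05 in edgeR (share over all genes not computed). The lower one was Rpa2, a subunit of the single-strand DNA binding complex, which fell from 483 ± 25.4 to 293 ± 19.7 CPM (-0.72, SE 0.14, adjusted p = 0.00607 in edgeR, and up to 0.0486 without each library in turn). The number higher was 4 without BPA replicate 2 and 2 with no low-count filter, and 2 fell without BPA replicate 2, as did 3 with the GC and length correction. Synapsis, telomere and nuclear envelope partners had 3 of 9 higher and 0 lower in edgeR, against 4.37% and 6.28% of all tested genes. Cdc20, an activator of anaphase and the 1 gene lower at an unadjusted p under 0.05, was called lower by DESeq2 and limma-voom. Sun1, the envelope protein that meiotic telomeres bind, was at 112.8, 130.4 and 135.2 CPM untreated and 207.9, 206.1 and 201.4 CPM under BPA (0.70, SE 0.15). Fkbp6, a co-chaperone found on meiotic chromosomes, rose by 0.52 (SE 0.13) and Tex14, needed for bridges between germ cells, by 1.03 (SE 0.26). Leaving out untreated replicate 1, untreated replicate 2 or BPA replicate 1 ended all 3 calls, and Tex14 was called only when BPA replicate 2 was the library left out (highest edgeR adjusted p 0.0972 for Sun1, 0.130 for Fkbp6 and 0.132 for Tex14).

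General cohesin, which also serves mitosis, had 1 of 12 higher and 1 lower. Smc1a, the mitotic counterpart of Smc1b, was at 7.01, 2.75 and 6.17 CPM untreated and 25.9, 8.52 and 23.5 CPM under BPA (1.86, SE 0.49), with BPA replicate 2 the lowest BPA library. Cdca5, which protects cohesion, fell by 0.81 (log2, SE 0.19). The number higher was 7 without BPA replicate 2, 4 with no low-count filter and 0 without any other single library, where Smc1a lost its call (edgeR adjusted p up to 0.144). Cdca5 was called only when untreated replicate 3 or BPA replicate 2 was the library left out (up to 0.117), and 2 genes were lower with the GC and length correction. Repressors that keep meiotic genes silent outside meiosis had 1 of 20 higher and 1 lower. Rnf2, a Polycomb ubiquitin ligase, was at 2.41, 3.92 and 1.31 CPM untreated and 32.3, 6.74 and 20.5 CPM under BPA (2.96, SE 0.59). Rnf2 has 39.5% GC, and BPA replicate 2 was again its lowest BPA library. Uhrf1, which maintains DNA methylation, was at 603.2, 632.1 and 567.3 CPM untreated and 394.5, 427.6 and 361.1 CPM under BPA (-0.61, SE 0.13). The call of Rnf2 ended when untreated replicate 1, untreated replicate 3 or BPA replicate 1 was dropped, and that of Uhrf1 when any library but untreated replicate 3 or BPA replicate 2 was (highest edgeR adjusted p 0.0639 and 0.0998). In limma-voom neither Rnf2 nor Smc1a passed. Without BPA replicate 2 this list had 2 higher and 2 lower.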

How the data were processed

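RNA was made into libraries with a TruSeq RNA v2 kit, which does not mark strand, per the labels' protocols. The submitters' processing notes name TopHat2 2.0.9, HTSeq and mm10. Which annotation release, read length and strand setting applied is not given in the sources used here. Deposited values are raw counts per gene and FPKM, both made by the authors. The FPKM equal the counts over a gene length and the column total to within a relative deviation of 9.2e-04, and were used for levels per length only. Columns were matched to samples by the code in the title.

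After filterByExpr and TMM scaling, edgeR 4.0.16 (R 4.3.3) tested the counts with its quasi-likelihood test, BPA against untreated, no block, two-sided, with Benjamini-Hochberg adjustment over 13287 genes. The SE is the log2 fold change over the square root of F. Spo11, Sycp2l and Ccdc79 had too few counts to be tested. Alternatives were DESeq2 1.42.0, limma-voom (limma 3.58.1), other scalings and filters, a stricter FDR (0.01), dropping each library in turn and a replicate block; a lowess correction (span 0.3) for GC content and length was added after the results were seen. The tests were tried on simulated counts. GC content and overlaps came from GENCODE M21 (mm10), where 98.6% of the gene identifiers were found. Of the 31 genes, 23 have an identical locus there. Coordinates are the deposited ones.

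The genes and lists were chosen with earlier results of these data known. Per-library values are given for genes past the threshold or with a mean of at least 1 CPM in either group; of the other lists, genes past the threshold are named, and of the cell type markers up to 3 of the most abundant. Other named markers and Cdc20 were named after their values were seen. Names of 2 list genes, Ankrd31 and Terb2, were not matched and are not analysed here.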

Additional observations from a re-analysis of the deposited data

How the results depend on the processing

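The number of genes past the threshold was 1415 with all libraries, 444 to 2807 without 1 library, 2193 in DESeq2, 2125 after the GC and length correction and 477 at an FDR of 0.01. Of the 31 meiotic genes 3 passed. The number was 0 to 6 without 1 library, 0 in limma-voom (Mei4, Prdm9 and Tex11 at adjusted p = 0.0953, 0.0723 and 0.155), 0 at an FDR of 0.01 and 1 with a replicate block. Of the 5 lists around them 12 genes passed, 3 to 29 without 1 library and 4 at an FDR of 0.01. With at least 1 CPM in 3 libraries Prdm9 was not tested.

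The deviations of same-numbered samples from their group means correlated at -0.023, 0.053 and 0.055, and not every sample correlated best with its own number. With 3 samples in a group, these values cannot decide whether the numbers pair the samples. The block raised the calls over all genes to 1706.

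Of 417 refitted fold changes of single meiotic genes, 366 kept their direction and their side of the threshold, 21 lost a call, 7 gained one and 23 changed sign, none of the last past the threshold (the cause was not tested). Signs turned in limma-voom for Hormad1 (-0.57), Gm1564 (-0.69) and Spata22 (0.70), with the block for Msh4 (-0.15) and Spata22 (1.13), with library size scaling for Tex12 (0.10), and after the GC and length correction for Syce3 (0.41), Hormad1 (-0.38), Stag3 (-0.13) and Tex12 (0.21). Without 1 library the values ran from -1.03 to 0.74 for Hormad1, -0.35 to 0.06 for Rec114, -0.06 to 1.04 for Smc1b, -0.01 to 0.16 for Stag3, -0.04 to 0.59 for Meiob, -0.30 to 1.45 for Gm1564, -0.98 to 1.07 for Msh4, -1.22 to 0.12 for Spata22, -0.40 to 0.32 for Tex12 and -0.30 to 0.01 for Syce3. Depth limits the scarce genes: 3 counts stand for 0.122 to 0.235 CPM in a library.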
